A study of Mus musculus with 12 samples.

Results

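The mRNA levels of 30 genes of cholesterol synthesis, its control and cholesterol efflux were measured by bulk RNA-seq in mouse osteoclasts, the multinucleated cells that resorb bone, after contact with eosinophils or their supernatant. The genes were taken by symbol from a table of 47643 genes, all 30 were found, and all 30 were among the 13681 genes that passed the filter on low counts. By role they comprised 18 synthesis enzymes, 5 genes of SREBP control, 5 LXR and efflux genes and 2 genes of sterol transfer and storage. The 12 libraries formed 3 groups of 4, namely untreated osteoclasts (OCsCtr), osteoclasts stimulated with sorted eosinophils at a BMMs/Eos ratio of 1:2 (OCsEo) and osteoclasts stimulated with eosinophil supernatant at a 1:2 dilution (OCsEoS). The cultures of all groups began with monocytes derived from the bone marrow (BMMs) of wild-type BALB/c mice and received the cytokines M-CSF and RANKL. The stimuli were given at day 0 for 48 h and then washed off, the medium was changed at day 2 in the protocol, and RNA of all groups was taken at day 3. The eosinophils came from IL-5tg/4get mice, which overproduce eosinophils through an IL-5 transgene, so they were not eosinophils of an unmanipulated animal. The ages of the animals are not given in the sources used here.

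Cells make cholesterol from acetyl-CoA through the mevalonate pathway, which leads over farnesyl pyrophosphate and squalene to lanosterol and from there through a series of sterol intermediates to cholesterol. When sterols in the endoplasmic reticulum fall, the escort protein SCAP releases the SREBP transcription factors from the INSIG anchors, and SREBP-2 switches on most of the synthesis enzymes. When oxysterols rise, the nuclear receptors LXRα and LXRβ switch on the exporters ABCA1 and ABCG1 and the ubiquitin ligase MYLIP, which lowers lipoprotein uptake. Osteoclasts need membrane cholesterol to fuse and survive, and the mevalonate pathway is also where the nitrogen-containing bisphosphonates used against bone loss act, through inhibition of farnesyl pyrophosphate synthase.

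The promoters of 4 members are shown first, because synthesis enzymes are a textbook case of shared promoter control. They were picked after values were seen, Hmgcs1 for its match to a sterol regulatory element, Nsdhl and Msmo1 for the lowest adjusted p of the members in OCsEo and in OCsEoS, and Insig1 for the lowest of the SREBP control genes in OCsEo. The sequences are RefSeq promoters of GRCm38.p6, from 250 bases before to 50 bases after the annotated start, and each is written 5′ to 3′ along its gene. Capitals mark a match, on either strand, to CCAAT (the box bound by NF-Y, which reads ATTGG on the opposite strand), CACGTG (the E-box) or TCACNCCAC (a sterol regulatory element, the site of SREBP).
Hmgcs1, chr13:119690101-119690400, plus strand: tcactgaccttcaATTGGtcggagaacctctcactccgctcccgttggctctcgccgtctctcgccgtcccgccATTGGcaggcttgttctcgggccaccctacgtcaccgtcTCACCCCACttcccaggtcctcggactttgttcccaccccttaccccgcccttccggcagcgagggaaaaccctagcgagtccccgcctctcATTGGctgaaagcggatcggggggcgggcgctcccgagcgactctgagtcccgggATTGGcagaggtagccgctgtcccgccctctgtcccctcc
Nsdhl, chrX:72918271-72918570, plus strand: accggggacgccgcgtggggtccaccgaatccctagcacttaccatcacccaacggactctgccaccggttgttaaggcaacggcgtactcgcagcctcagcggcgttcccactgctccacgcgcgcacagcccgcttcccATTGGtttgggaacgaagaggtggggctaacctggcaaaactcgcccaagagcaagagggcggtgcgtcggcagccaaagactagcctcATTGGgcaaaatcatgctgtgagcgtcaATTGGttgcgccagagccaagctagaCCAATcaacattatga
Msmo1, chr8:64733529-64733828, minus strand: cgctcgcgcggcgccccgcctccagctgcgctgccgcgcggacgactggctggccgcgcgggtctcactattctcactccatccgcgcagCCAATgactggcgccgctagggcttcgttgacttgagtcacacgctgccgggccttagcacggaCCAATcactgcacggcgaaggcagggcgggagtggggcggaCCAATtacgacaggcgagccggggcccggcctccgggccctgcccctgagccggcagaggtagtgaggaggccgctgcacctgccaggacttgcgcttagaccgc
Insig1, chr5:28071162-28071461, plus strand: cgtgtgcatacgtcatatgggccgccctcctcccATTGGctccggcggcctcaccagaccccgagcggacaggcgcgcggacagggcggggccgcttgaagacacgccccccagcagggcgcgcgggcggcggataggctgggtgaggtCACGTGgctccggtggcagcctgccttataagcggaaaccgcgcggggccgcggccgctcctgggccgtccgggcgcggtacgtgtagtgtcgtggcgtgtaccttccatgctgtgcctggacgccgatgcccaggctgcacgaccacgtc

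A promoter was given for 25 of the 30 members, and Sqle, Abcg1, Fdft1, Fdps and Stard4 had none in the table. CCAAT was found in at least 1 promoter of 20 of the 25 members, and of 14 of the 15 synthesis enzymes among them, the exception being Acat2. Over all 32851 RefSeq mouse promoters of this length the share with CCAAT was 37.4%, and it was 42.8% over the 9696 genes tested here that have a promoter in the table. CACGTG was found in 6 of the 25 members, including Insig1 and Abca1, against 7.15% of all promoters and 11.7% of the tested genes. TCACNCCAC was found in Hmgcs1 alone of the 25 members, against 1.24% of all promoters and 1.34% of the tested genes. The direct repeat of AGGTCA with 4 bases between, the textbook LXR element, was found in none. It matched 0.0152% of all promoters and 0 of the 9696 tested genes with a promoter, so its absence here carries no information. Only exact matches were counted, so sites that differ from a motif would be missed. CACGTG reads the same on both strands and no 2 of these motifs overlap by necessity. Several members have more than 1 annotated start and were counted once if any of their promoters matched, which raises their share over the share of single promoters.

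Levels were expressed as CPM, counts relative to the library total after TMM scaling (a correction for differences in library composition), and between genes they were compared only per kilobase of the gene length the authors give. In OCsCtr the highest of the 30 genes was Ebp, the sterol isomerase of the late pathway, at 44.8 ± 4.24 CPM per kilobase (SD, n = 4). It was followed by Srebf2, which encodes SREBP-2, at 30.9 ± 1.16, the INSIG gene Insig1 at 28.2 ± 2.69 and the sterol dehydrogenase gene Nsdhl at 24.5 ± 2.59 CPM per kilobase. Of the 30 genes, 24 were above the median of all tested genes, which was 3.79 CPM per kilobase, and the median of the members was 11.3. The 6 below it were Hsd17b7, Tm7sf2, Mylip, Lss, Abca1 and Fdps, which encode in this order a keto reductase, a sterol reductase, the ubiquitin ligase named above, lanosterol synthase, an exporter and farnesyl pyrophosphate synthase. The exporter gene Abcg1, at 21.4 ± 4.22 CPM per kilobase, was far above Abca1, at 1.70 ± 0.495. Of the 29 pairs of neighbours in this order, 24 had overlapping OCsCtr libraries and 5 did not. Ebp stood clear of Srebf2, Hmgcs1 of Insig2, Sqle of Fdft1, Scap of Hsd17b7 and Abca1 of Fdps. The level of Fdps is uncertain for reasons given below.

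**Figure D1:**
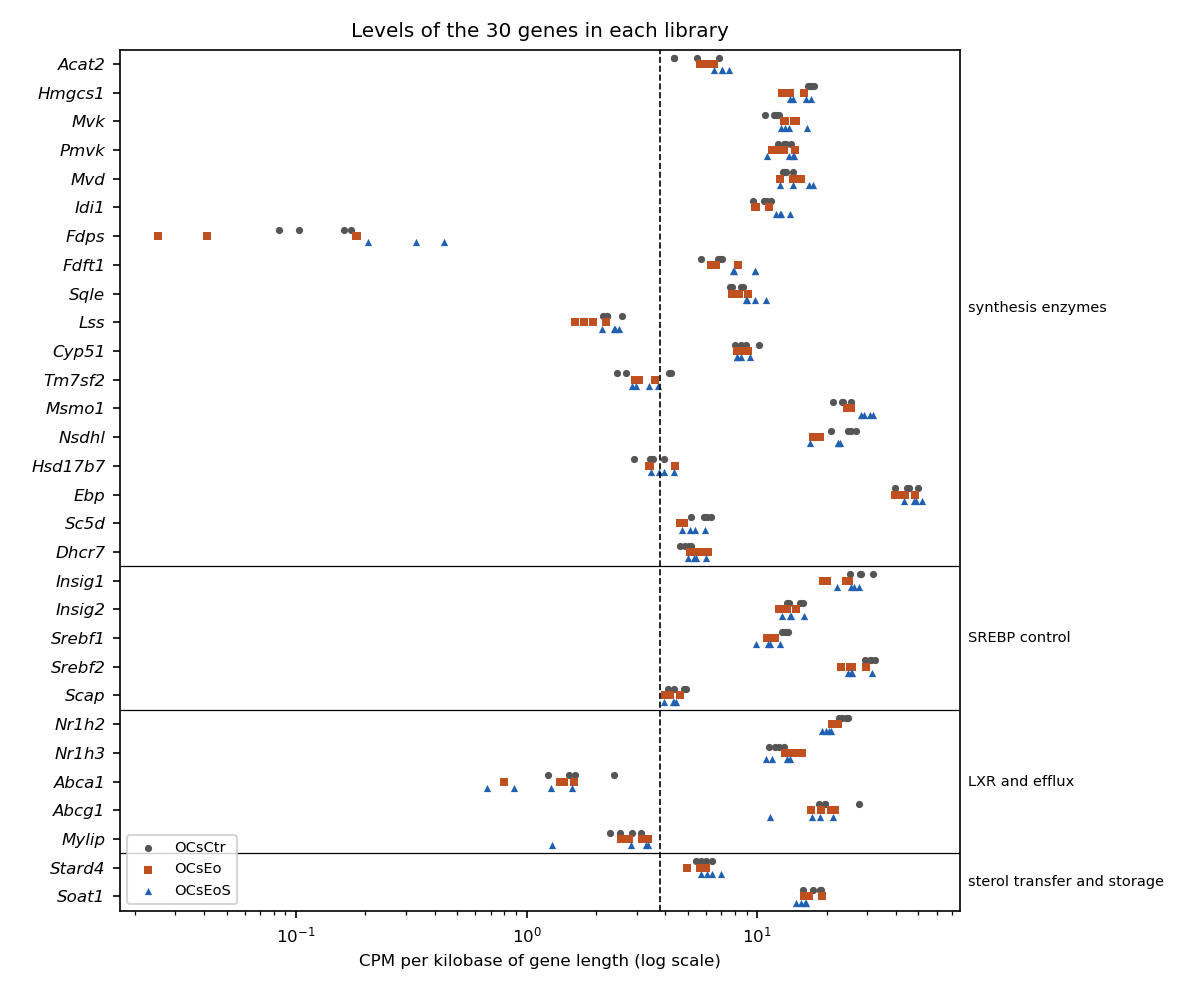
Level of each of the 30 genes in each library, in CPM per kilobase of gene length on a log axis, with 1 point per library and the groups offset and told apart by colour and shape. Most genes sit to the right of the dashed line, the median of all tested genes in OCsCtr (3.79), the groups lie close together, and Fdps is far to the left (its OCsEoS library without counts is not drawn).

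Among the members with the highest level per kilobase in their role, Ebp was at 91.1, 105, 115 and 103 CPM in OCsCtr libraries 1 to 4, 91.7, 95.9, 111 and 101 CPM in OCsEo libraries 1 to 4 and 110.2, 119, 113 and 100.3 CPM in OCsEoS libraries 1 to 4. The 3 groups overlapped for Ebp, with log2 fold changes against OCsCtr of -0.05 (standard error 0.08) in OCsEo and 0.10 (standard error 0.08) in OCsEoS. Soat1, which encodes the enzyme that esterifies cholesterol for storage, was at 154, 170.2, 184 and 185 CPM in OCsCtr libraries 1 to 4, 164, 157, 164 and 186 CPM in OCsEo libraries 1 to 4 and 151, 158, 144 and 159 CPM in OCsEoS libraries 1 to 4. Its OCsEoS libraries were among the lower ones but overlapped OCsCtr, and the log2 fold change of -0.18 (standard error 0.07) did not pass the adjusted p with edgeR (adjusted p = 0.0695), whereas it did with both DESeq2 fits and with the replicate number as a block. Srebf2 and Nr1h2, the highest of their roles, are given below.

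The libraries had 27837530 to 40327869 counts on genes, at which 3 counts equalled 0.0769 to 0.107 CPM, and all 18 pairs of replicates differed by more than sampling noise (chi-square per degree of freedom 9.99 to 35.7). The summed level of 10 osteoclast markers was lower with both stimuli, at 28360 to 34500 CPM in OCsCtr, 18090 to 23210 CPM in OCsEo and 14940 to 22170 CPM in OCsEoS, whereas macrophage markers summed to 6374 to 6999, 6515 to 8039 and 6039 to 7163 CPM. Eosinophil markers summed to 57.1 to 73.7, 60.1 to 82.2 and 49.3 to 55.5 CPM and neutrophil markers to 314 to 457, 457 to 611 and 358 to 427 CPM. By the rule for calls given below, 2 of the 5 tested eosinophil markers and 2 of the 10 neutrophil markers were called higher in OCsEo than in OCsCtr, and 2 and 3 were called lower in OCsEoS than in OCsEo. The part of these shifts in the results on the cholesterol genes was not tested. In bulk RNA, fewer cells of a type and less RNA per cell cannot be told apart. Library OCsEoS 4 stood apart in the LXR target genes, so results that rest on it are also given without it.

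The first comparison asked how contact with eosinophils changed the osteoclasts. In OCsEo, the dehydrogenase gene Nsdhl fell by 0.44 on the log2 scale, the sterol sensor Insig1 by 0.35, the early enzyme Hmgcs1 by 0.29 and the transcription factor gene Srebf2 by 0.26. None of these changes reached the cut-off on the fold change. Calls asked for an adjusted p below 0.05 together with a log2 fold change beyond 0.5 in either direction, and by that rule 0 of the 30 members were called, against 5.88% of all tested genes (edgeR's quasi-likelihood test, Benjamini-Hochberg adjustment over all genes tested). DESeq2 on all 12 libraries and on the 2 groups also called 0. At the adjusted p alone, 4 members were lower and 0 were higher, against 8.35% and 9.06% of all tested genes, and 10 members had an unadjusted p under 0.05, against 29.7%. The members that passed the adjusted p alone lie outside the rule for values by library, which asked for called genes, and were chosen for such values after they were seen.

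Nsdhl encodes the dehydrogenase that acts, after the methylsterol oxidase Msmo1, in removing methyl groups from the sterol ring. Nsdhl was at 59.5, 72.6, 76.8 and 70.7 CPM in OCsCtr libraries 1 to 4, 50.4, 53.03, 53.3 and 49.8 CPM in OCsEo libraries 1 to 4 and 63.8, 64.1, 65.1 and 48.3 CPM in OCsEoS libraries 1 to 4. All OCsEo libraries were below all OCsCtr libraries, and OCsEoS libraries 1 to 3 lay within the OCsCtr range while OCsEoS 4 was below the OCsEo range. In OCsEo the log2 fold change was -0.44 (standard error 0.09, 95% interval -0.63 to -0.24, edgeR adjusted p = 0.00273). In OCsEoS it was -0.21 (standard error 0.09, adjusted p = 0.110), and -0.11 without OCsEoS 4.

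Insig1 encodes an anchor that holds SCAP and the SREBPs in the endoplasmic reticulum and is itself switched on by SREBP. Insig1 was at 77.9, 87.3, 86.03 and 98.1 CPM in OCsCtr libraries 1 to 4, 59.7, 77.5, 61.8 and 74.7 CPM in OCsEo libraries 1 to 4 and 78.95, 85.8, 81.3 and 68.7 CPM in OCsEoS libraries 1 to 4. All OCsEo libraries were below all OCsCtr libraries, with OCsEo 2 only just below OCsCtr 1, and the OCsEoS libraries overlapped both groups. In OCsEo its log2 fold change was -0.35 (standard error 0.09, edgeR adjusted p = 0.0127), and it lost the adjusted p without OCsCtr 4 or without OCsEo 1, where it reached 0.0554 at most. Srebf2 was at 147, 161, 154 and 155 CPM in OCsCtr libraries 1 to 4, 126, 148, 115 and 128 CPM in OCsEo libraries 1 to 4 and 128, 156, 123 and 128 CPM in OCsEoS libraries 1 to 4. The OCsEo libraries 1, 3 and 4 were below all OCsCtr libraries, and OCsEo 2 overlapped them. Srebf2 had a log2 fold change of -0.26 (standard error 0.08, adjusted p = 0.0342) in OCsEo and -0.20 (standard error 0.08, adjusted p = 0.0766) in OCsEoS.

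Hmgcs1 encodes the synthase that makes HMG-CoA, the precursor of mevalonate. Hmgcs1 was at 55.2, 55.5, 57.1 and 53.8 CPM in OCsCtr libraries 1 to 4, 43.2, 51.8, 45.04 and 41.5 CPM in OCsEo libraries 1 to 4 and 44.6, 55.4, 52.5 and 46.2 CPM in OCsEoS libraries 1 to 4. Each OCsEo library was below every OCsCtr library, and the OCsEoS libraries spread from the OCsEo range into the OCsCtr range. Hmgcs1 had a log2 fold change of -0.29 (standard error 0.09, adjusted p = 0.0241) in OCsEo and -0.16 (standard error 0.08, adjusted p = 0.210) in OCsEoS. In OCsEo, Srebf2 and Hmgcs1 lost the adjusted p when some single libraries were left out, reaching 0.116 and 0.0798 at most, whereas Nsdhl kept it in all 21 alternatives.

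As a group, 8 of the 18 synthesis enzymes had a positive and 10 a negative log2 fold change in OCsEo, with a median of -0.02 beside -0.01 for all tested genes. All 5 genes of SREBP control had a negative value, from -0.35 for Insig1 to -0.12 for Scap, with a median of -0.19. Over all tested genes, 6964 of 13681 had a negative value. At the adjusted p alone 2 of the 5 were lower, against 8.35% of all tested genes. Of the LXR and efflux genes, 2 had a positive and 3 a negative value, with a median of -0.12 and none past the adjusted p with edgeR. In this group the exporter gene Abca1 had the lowest value, -0.38 (standard error 0.24, adjusted p = 0.325), and Nr1h3, which encodes LXRα, the highest, 0.26 (standard error 0.10, adjusted p = 0.0720), which passed the adjusted p with both DESeq2 fits. Nr1h3 was at 28.1 to 33.0 CPM in OCsCtr and at 33.1 to 39.3 CPM in OCsEo, groups that did not overlap. Groups that did not overlap were found for 2 members that were higher and 6 that were lower in OCsEo, against 10.5% and 10.9% of all tested genes.

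The second comparison asked what eosinophil supernatant did without the cells, against the same OCsCtr libraries as the first. No sequenced group received medium conditioned by other cells. Eosinophil products and the use of already conditioned medium therefore cannot be told apart here. In the paper, BMM supernatant left osteoclast formation and osteoclast genes unchanged, but it was not sequenced. In OCsEoS, 5 synthesis enzymes rose: Fdft1 and Acat2 by 0.42, Msmo1 by 0.35, Idi1 by 0.26 and Sqle by 0.25 on the log2 scale. Nr1h2, which encodes LXRβ, and Srebf1, which encodes SREBP-1, each fell by 0.24. Of the 30 members, 0 were called with the cut-off on the fold change, against 7.73% of all tested genes, and DESeq2 on all 12 libraries and on the 2 groups also called 0. At the adjusted p alone, these 5 members were higher and 2 were lower, against 11.8% and 11.2% of all tested genes. An unadjusted p under 0.05 was reached by 13 members, against 34.3% of all tested genes.

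Msmo1 encodes the methylsterol oxidase that precedes Nsdhl in the pathway. Msmo1 was at 145, 143, 156 and 131 CPM in OCsCtr libraries 1 to 4, 155, 151, 152 and 156 CPM in OCsEo libraries 1 to 4 and 178, 173, 189 and 196 CPM in OCsEoS libraries 1 to 4. Every OCsEoS library was above all 8 libraries of the other groups. Against OCsCtr the log2 fold change was 0.35 (standard error 0.06, 95% interval 0.22 to 0.48, edgeR adjusted p = 0.000395), the lowest adjusted p of any member. In OCsEo it was 0.09 (standard error 0.06, adjusted p = 0.364).

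Fdft1 encodes squalene synthase, the first enzyme committed to sterols. Fdft1 was at 19.8, 16.3, 20.1 and 19.3 CPM in OCsCtr libraries 1 to 4, 17.99, 23.5, 18.9 and 18.5 CPM in OCsEo libraries 1 to 4 and 27.98, 22.5, 28.02 and 22.8 CPM in OCsEoS libraries 1 to 4. All OCsEoS libraries were above all OCsCtr libraries, and OCsEo 2 reached into the OCsEoS range while the other OCsEo libraries lay with OCsCtr. Fdft1 had a log2 fold change of 0.42 in OCsEoS (standard error 0.12, adjusted p = 0.0128). In the annotation 18.3% of the exon bases of Fdft1 overlap Ctsb, a cathepsin gene at a mean of 1879 CPM in OCsCtr, and whether reads were counted by strand is not stated. The annotation holds 4227 exon bases of Fdft1 and the authors give a length of 2860, so the overlap may lie outside the counted stretch. Ctsb itself had log2 fold changes of 0.65 in OCsEo and 0.17 in OCsEoS, where Fdft1 had 0.06 and 0.42.

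Idi1 encodes the isomerase that supplies dimethylallyl pyrophosphate, and Sqle the epoxidase that opens the way from squalene to lanosterol. Idi1 was at 33.6, 38.5, 37.7 and 40.2 CPM in OCsCtr libraries 1 to 4, 39.3, 34.7, 39.5 and 34.4 CPM in OCsEo libraries 1 to 4 and 43.9, 44.6, 48.7 and 42.5 CPM in OCsEoS libraries 1 to 4. Sqle was at 42.95, 42.2, 48.02 and 47.2 CPM in OCsCtr libraries 1 to 4, 50.4, 43.04, 44.2 and 46.5 CPM in OCsEo libraries 1 to 4 and 50.3, 54.4, 60.8 and 49.7 CPM in OCsEoS libraries 1 to 4. For both genes all OCsEoS libraries were above all OCsCtr libraries, and for Idi1 also above all OCsEo libraries. The log2 fold changes in OCsEoS were 0.26 for Idi1 (standard error 0.08, adjusted p = 0.0306) and 0.25 for Sqle (standard error 0.08, adjusted p = 0.0320). Of the transcript stretches of 75 bases of Idi1, 16.7% also occur in the pseudogene Gm13502, which had 209 counts in all libraries together.

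Acat2 encodes the thiolase that joins acetyl-CoA units at the start of the pathway. Acat2 was at 13.9, 11.1, 11.1 and 17.4 CPM in OCsCtr libraries 1 to 4, 16.05, 15.3, 16.5 and 14.3 CPM in OCsEo libraries 1 to 4 and 16.5, 17.9, 19.2 and 17.96 CPM in OCsEoS libraries 1 to 4. The OCsEoS libraries were above OCsCtr 1 to 3 but OCsCtr 4 reached into their range, and the log2 fold change was 0.42 (standard error 0.13, adjusted p = 0.0276). Without OCsCtr 4 it was 0.57, over the cut-off on the fold change. Acat2 shares 33.9% of its stretches of 75 bases with Acat3, which had 50 counts in all libraries together.

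**Figure D2:**
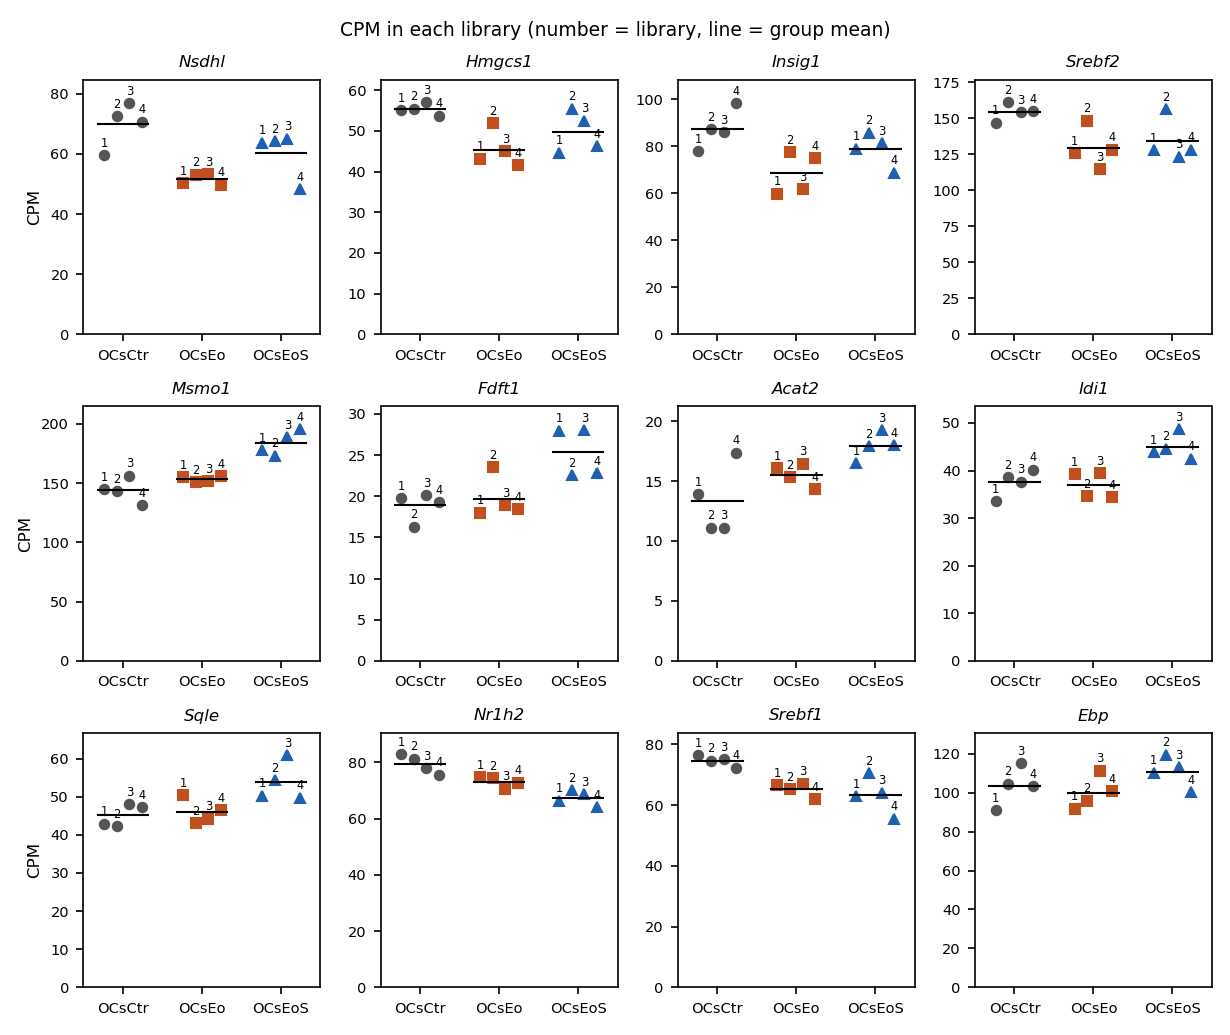
CPM of 12 members in each library on axes that start at 0, with 1 point per library (its number above it) and a line at each group mean. Nsdhl and Insig1 are lowest in OCsEo, Msmo1 and Idi1 are highest in OCsEoS, Nr1h2 and Srebf1 are highest in OCsCtr, and Ebp overlaps in all groups.

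Nr1h2 was at 82.8, 81.3, 77.9 and 75.6 CPM in OCsCtr libraries 1 to 4, 74.8, 74.3, 70.6 and 72.8 CPM in OCsEo libraries 1 to 4 and 66.4, 70.01, 68.6 and 63.97 CPM in OCsEoS libraries 1 to 4. Every OCsEoS library was below every library of the other groups, and every OCsEo library was below every OCsCtr library. The log2 fold change was -0.24 (standard error 0.06, edgeR adjusted p = 0.00868) in OCsEoS and -0.12 (standard error 0.06, adjusted p = 0.216) in OCsEo. Srebf1 was at 76.5, 74.7, 75.1 and 72.4 CPM in OCsCtr libraries 1 to 4, 66.6, 65.3, 67.1 and 61.9 CPM in OCsEo libraries 1 to 4 and 63.00, 70.6, 64.1 and 55.5 CPM in OCsEoS libraries 1 to 4. All stimulated libraries were below all OCsCtr libraries, and the 2 stimulated groups overlapped. The log2 fold change was -0.24 (standard error 0.07, adjusted p = 0.0217) in OCsEoS and -0.19 (standard error 0.07, adjusted p = 0.0713) in OCsEo.

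As a group, 13 of the 18 synthesis enzymes had a positive and 5 a negative log2 fold change in OCsEoS, with a median of 0.15 beside -0.01 for all tested genes. The 5 negative values belonged to Hmgcs1, Cyp51, Tm7sf2, Nsdhl and Sc5d, none of which passed the adjusted p. Fdps, whose level is uncertain, was among the 13 positive ones. The 5 genes of SREBP control were all negative, with a median of -0.15, although Insig2 turned to 0.01 without OCsCtr 3 or without OCsEoS 2, and Scap to 0.01 in the fit corrected for gene length. Of the LXR and efflux genes 4 of 5 were negative, with a median of -0.24, which was -0.16 without OCsEoS 4. Of the 13681 tested genes, 6755 had a positive and 6926 a negative value. Groups that did not overlap were found for 5 members that were higher and 2 that were lower, against 12.6% and 13.1% of all tested genes. Msmo1, Fdft1 and Nr1h2 passed the adjusted p in all 21 alternatives, and Acat2, Idi1, Sqle and Srebf1 lost it in 3 to 5 of them.

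Each gene was also centred on its mean over all libraries, and the median over each role was taken in each library. A group then stood apart for the synthesis enzymes and for SREBP control, by narrow margins, and not for the other roles. How often other gene sets of like size separate was not examined. For the synthesis enzymes this median was 0.01 to 0.13 on the log2 scale in the OCsEoS libraries, above all OCsCtr libraries (-0.11 to -0.02) and all OCsEo libraries (-0.12 to -0.04). For SREBP control it was 0.07 to 0.14 in the OCsCtr libraries, above all OCsEo libraries (-0.15 to -0.01) and all OCsEoS libraries (-0.12 to 0.05). For the LXR and efflux genes the groups overlapped, with -0.75 in OCsEoS 4 and -0.15 to 0.19 in the other libraries. They also overlapped for sterol transfer and storage, at -0.06 to 0.12 in OCsCtr, -0.13 to 0.10 in OCsEo and -0.06 to 0.02 in OCsEoS.

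**Figure D3:**
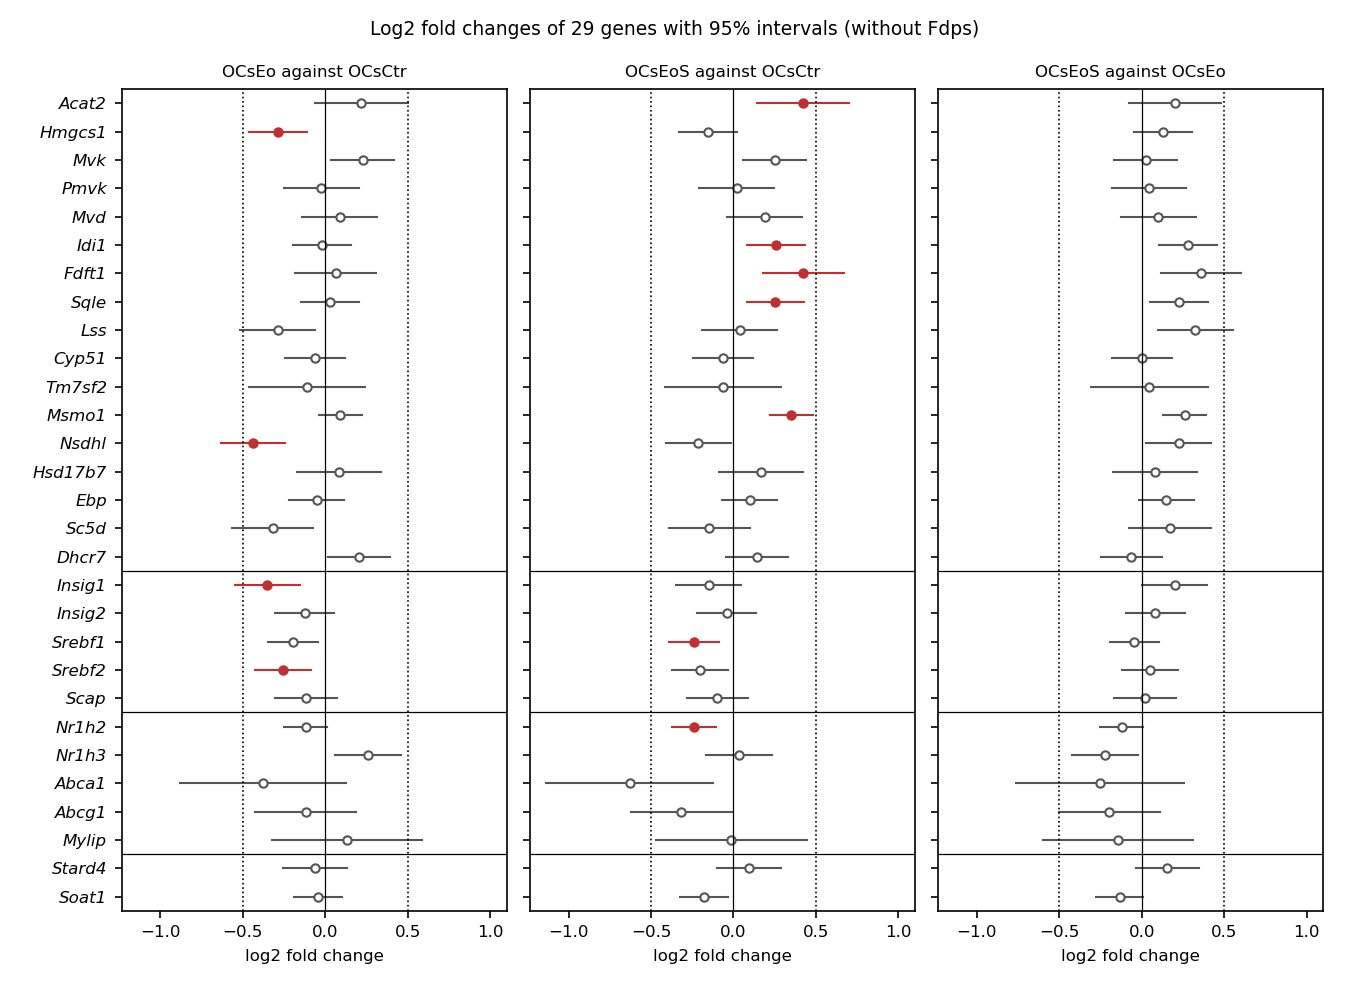
Log2 fold changes of 29 members from the edgeR fit of all libraries (points) with 95% intervals (lines), a panel for each comparison and genes ordered by role between the solid lines. Filled red points passed the adjusted p (4 in the first panel, 7 in the second, 0 in the third), dotted lines mark the cut-off of 0.5, and Fdps is left out because its intervals are far wider.

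The third comparison set supernatant against whole eosinophils. Of the 18 synthesis enzymes, 17 had a higher fitted level in OCsEoS than in OCsEo, with a median of 0.16 beside 0.00 for all tested genes, and only Dhcr7 was negative at -0.06. The 17 included Fdps, whose level is uncertain, and Cyp51 and Mvk, at 0.00 and 0.02 (standard error 0.09 each). All 5 LXR and efflux genes had a negative value, with a median of -0.20, which was -0.08 without OCsEoS 4. None of the 30 members passed the adjusted p with edgeR, against 0.592% of all tested genes, and 0 were called, against 0.38%, whereas 8 had an unadjusted p under 0.05, against 11.1%. DESeq2 called 0 as well, and Msmo1 alone passed its adjusted p.

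Msmo1 was the closest with a log2 fold change of 0.26 (standard error 0.06, edgeR adjusted p = 0.0626), followed in p by Idi1 at 0.28 (standard error 0.08, adjusted p = 0.181), Fdft1 at 0.36 (standard error 0.12, adjusted p = 0.219) and Lss, which encodes lanosterol synthase, at 0.33 (standard error 0.11, adjusted p = 0.228). Nsdhl was at 0.22 (standard error 0.09, adjusted p = 0.366). Groups that did not overlap were found for 3 members that were higher in OCsEoS (Acat2, Idi1 and Msmo1) and 1 that was lower (Nr1h2), against 2.41% and 3.06% of all tested genes. With edgeR, a rise of a synthesis enzyme past the threshold in OCsEoS and not in OCsEo was therefore not shown to differ between the stimuli, and with DESeq2 or the replicate number as a block it was for Msmo1 alone.

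The exporters and the ligase MYLIP are the direct outputs of LXR. Abca1 was at 12.9, 16.9, 15.9 and 24.9 CPM in OCsCtr libraries 1 to 4, 14.5, 15.02, 8.25 and 16.7 CPM in OCsEo libraries 1 to 4 and 13.2, 16.2, 9.17 and 6.998 CPM in OCsEoS libraries 1 to 4. OCsCtr 4 was the highest library, OCsEoS 4 the lowest, and all groups overlapped. Its log2 fold change in OCsEoS was -0.63 (standard error 0.24, 95% interval -1.14 to -0.12, edgeR adjusted p = 0.0682), the largest of the 30 genes beside Fdps, but without OCsEoS 4 it was -0.45 (adjusted p = 0.211) and without OCsCtr 4 it was -0.42 (adjusted p = 0.270). It passed both thresholds in 5 alternatives, 3 of which left out OCsCtr 1, OCsEo 3 or OCsEoS 2 and reached -0.85 at most.

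Abcg1 was at 75.7, 79.9, 79.8 and 113 CPM in OCsCtr libraries 1 to 4, 77.1, 85.2, 69.4 and 88.6 CPM in OCsEo libraries 1 to 4 and 70.4, 86.4, 76.02 and 46.3 CPM in OCsEoS libraries 1 to 4. OCsCtr 4 was highest and OCsEoS 4 lowest, and the other 10 libraries lay within 69.4 to 88.6 CPM. The log2 fold change was -0.32 (standard error 0.15, adjusted p = 0.130) in OCsEoS, -0.16 without OCsEoS 4, and in OCsEo it was -0.12 (standard error 0.15, adjusted p = 0.651), turning to 0.03 without OCsCtr 4. Mylip was at 7.77, 8.81, 7.04 and 9.64 CPM in OCsCtr libraries 1 to 4, 7.89, 10.3, 9.66 and 8.52 CPM in OCsEo libraries 1 to 4 and 8.72, 10.04, 10.2 and 3.97 CPM in OCsEoS libraries 1 to 4. Apart from OCsEoS 4, which was the lowest, the groups overlapped, with log2 fold changes of 0.13 (standard error 0.22) in OCsEo and -0.01 (standard error 0.22) in OCsEoS, where it was 0.22 without OCsEoS 4.

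These 3 genes moved together from library to library within the groups. After the group means were taken out, Pearson's r over the 12 libraries was 0.85 between Abca1 and Abcg1, 0.82 between Abcg1 and Mylip and 0.51 between Abca1 and Mylip, beside a median of 0.00 over all pairs of tested genes and 0.02 over the pairs of synthesis enzymes. The libraries share their depth and culture within each sample, so these values describe the libraries. Without OCsEoS 4 and OCsEoS 2, the 2 libraries farthest from the median, r was 0.79, 0.48 and 0.07 in the same order, so that the relations with Mylip rested on those libraries.

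Insig1 moved with the mean of the 3 genes (r = 0.82, and 0.83 without the 2 libraries), and Msmo1 moved against it (r = -0.73 and -0.63). Of the other genes of LXR or SREBP lists, picked after their values were seen, Scd2 and Scd1, desaturases that make monounsaturated fatty acids, and Lpcat3, which remodels phospholipids, had r of 0.91, 0.84 and 0.85, and 0.74, 0.68 and 0.76 without the 2 libraries. They are the 3 highest of the 18 LXR genes examined in this way, over which r ran from -0.45 for the corepressor gene Ncor1 to 0.91, with values near 0 for the transporter gene Abca7 (0.00) and the nuclear receptor genes Pparg (0.16) and Rxra (-0.15). Srebf1, a textbook LXR target, had an r of 0.56 that turned to -0.78 without the 2 libraries. Scd1 was at 2.39 CPM in OCsEoS 4 against 5.46 to 6.43 CPM in the other OCsEoS libraries, and at 7.56 CPM in OCsCtr 4 against 2.94 to 5.13 CPM in the other OCsCtr libraries. The LXR genes themselves did not follow this order, with r of 0.33 for Nr1h2 and -0.23 for Nr1h3. Among the 18, the nuclear receptor gene Rxrb and the transfer protein gene Pltp did follow it, with r of 0.79 and 0.72 over all 12 libraries. Among all tested genes, these r were at percentiles 98.09 and 96.17, and those of Scd2, Lpcat3 and Scd1 at 99.83, 99.25 and 99.04. Other tested genes therefore moved with the mean of the 3 genes as closely. OCsEoS 4 also had the lowest summed osteoclast markers of all libraries (14940 CPM) and OCsCtr 4 the highest (34500 CPM), and the part of this in the LXR targets was not tested.

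**Figure D4:**
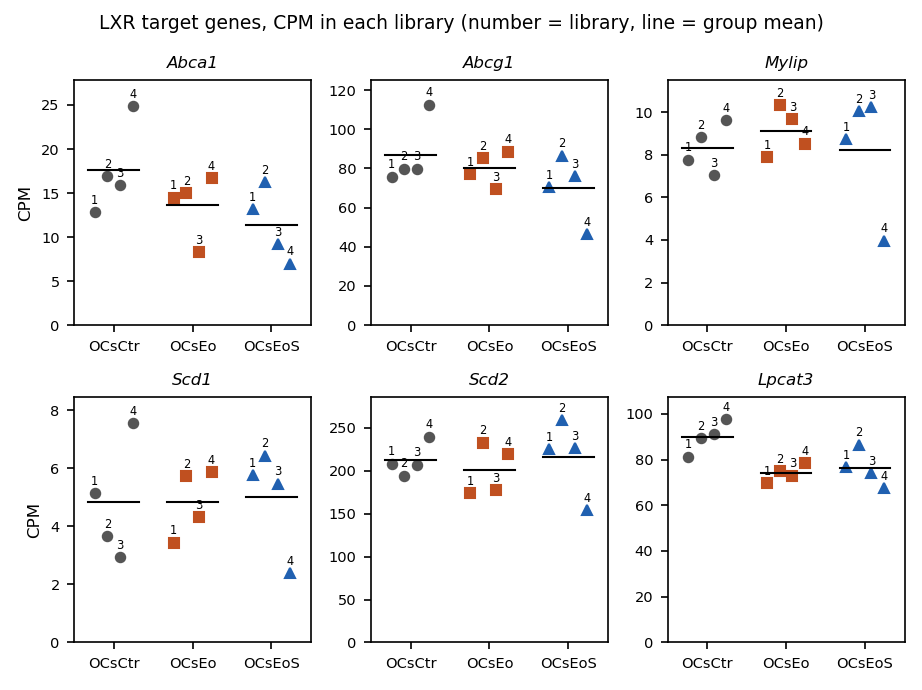
CPM of 3 LXR target genes of the list (Abca1, Abcg1 and Mylip) and of Scd1, Scd2 and Lpcat3 in each library on axes that start at 0, with 1 point per library (its number above it) and a line at each group mean. OCsEoS 4 is the lowest library in all 6 panels and OCsCtr 4 is the highest OCsCtr library in all 6.

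Fdps, the target of nitrogen-containing bisphosphonates, had the fewest counts of the 30 genes and, in OCsEoS, the largest fitted fold change. It had 21, 12, 23 and 14 counts in OCsCtr libraries 1 to 4, 26, 4, 30 and 5 in OCsEo and 0, 64, 29 and 48 in OCsEoS, 276 counts in all. The OCsEoS libraries spanned the whole range of the other groups, and the log2 fold change of 0.91 in OCsEoS had a 95% interval from -0.86 to 2.68 (edgeR adjusted p = 0.503). The intronless pseudogene Gm3571 on chromosome 10, named in the annotation after the same protein, had 2348 counts, with 133 to 288 in each library, and Gm5873 on chromosome 6 had 458. Of the stretches of 75 bases of Gm3571, 33.9% also occur in transcripts of Fdps, and 12.3% of those of Gm5873. Gm3571 had log2 fold changes of 0.18 in OCsEo (standard error 0.18, adjusted p = 0.579) and 0.44 in OCsEoS (standard error 0.18, adjusted p = 0.0935). In the annotation the protein-coding gene Gm43738, which had 0 counts, overlaps 26.7% of the exon bases of Fdps. It shares 21.9% of the stretches of 75 bases of Fdps. From which copy or overlapping gene the reads came cannot be told apart in a table of counts, so the level of Fdps is uncertain.

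**Figure D5:**
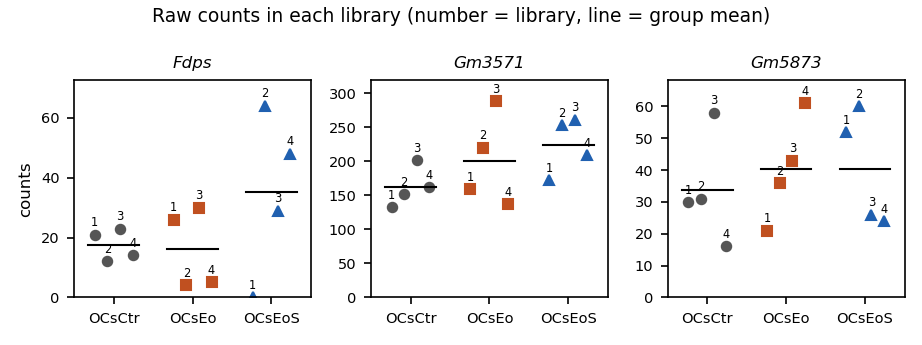
Raw counts of Fdps and of its pseudogenes Gm3571 and Gm5873 in each library on axes that start at 0, with 1 point per library (its number above it) and a line at each group mean. Gm3571 had 133 to 288 counts in each library and Fdps 0 to 64.

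The remaining synthesis enzymes did not pass the adjusted p with edgeR in either comparison with OCsCtr. Mvk, the kinase that phosphorylates mevalonate, was higher without overlap of the groups in both comparisons with OCsCtr, from 31.6 ± 1.80 CPM to 36.9 ± 2.25 CPM and 37.6 ± 4.32 CPM (SD, n = 4), with adjusted p of 0.0972 and 0.0530. In OCsEoS it passed the adjusted p with both DESeq2 fits and with the replicate number as a block. Sc5d, a desaturase of the late pathway, was lower without overlap in OCsEo, from 13.6 ± 1.13 CPM to 10.9 ± 0.226 CPM (SD, n = 4, adjusted p = 0.0686). Lss was at 24.8 ± 2.17 CPM, 20.3 ± 2.74 CPM and 25.5 ± 1.85 CPM in OCsCtr, OCsEo and OCsEoS (SD, n = 4), with an adjusted p of 0.0765 for OCsEo. Pmvk, Mvd, Cyp51, Tm7sf2, Hsd17b7 and Dhcr7, enzymes from mevalonate to the last reduction, had log2 fold changes of -0.11 to 0.20 in OCsEo and -0.06 to 0.19 in OCsEoS. Insig2 and Scap had -0.13 and -0.12 in OCsEo, and Stard4, which carries sterols between membranes, -0.06 and 0.09 in the 2 comparisons.

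The design limited how small a change could be called. The 95% interval of a member reached a median of 0.19 on the log2 scale to either side of its value, and in OCsEo, OCsEoS and the comparison of the stimuli it lay wholly within 0.5 of no change for 23, 25 and 24 of the 30 members, against 45.1%, 42.2% and 55.8% of all tested genes. The members had a higher median level in OCsCtr than all tested genes (11.3 against 3.79 CPM per kilobase). The part of this in the shares was not tested.

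Around the 30 genes, 97 further genes of the pathway were examined in 6 lists, of which 89 were tested. Of these, 2 were called higher and 2 lower in OCsEo, against 3.27% and 2.61% of all tested genes, 2 higher and 4 lower in OCsEoS, against 3.63% and 4.11%, and 0 between the stimuli with edgeR, where 2 passed the adjusted p alone. At the adjusted p alone 7 of the 89 were higher and 17 lower in OCsEo, against 9.06% and 8.35% of all tested genes, and 11 higher and 20 lower in OCsEoS, against 11.8% and 11.2%. Cd36, a scavenger receptor for oxidised lipoproteins and fatty acids, rose in both, with log2 fold changes of 1.54 in OCsEo and 1.66 in OCsEoS (standard error 0.07 each). Scarb2, a lysosomal membrane protein gene, rose from 42.7 ± 6.55 CPM to 60.9 ± 2.71 CPM in OCsEo (SD, n = 4, log2 fold change 0.51, adjusted p = 0.000476), and had a log2 fold change of 0.31 in OCsEoS (adjusted p = 0.0137). Smpd1, the lysosomal acid sphingomyelinase, fell from 243 ± 11.2 CPM to 169 ± 9.79 CPM in OCsEo (log2 fold change -0.52, adjusted p = 3.27e-05), and its log2 fold change of -0.49 in OCsEoS (adjusted p = 4.94e-05) was just short of the cut-off.

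Abca2, a transporter of late endosomes, fell by 0.57 in OCsEo and by 0.62 in OCsEoS on the log2 scale, from 54.8 ± 4.00 CPM to 36.9 ± 5.68 CPM and 35.6 ± 3.53 CPM (SD, n = 4). In OCsEoS 3 genes of sterol transfer between membranes fell, namely Osbp by 0.51, Osbpl9 by 0.51 and Gramd1a by 0.58. All 3 were also lower in OCsEo at the adjusted p alone, by log2 fold changes of -0.26, -0.41 and -0.44 (adjusted p = 0.0315, 0.000374 and 0.0129). Ggps1, which makes the geranylgeranyl groups of small GTPases, rose by 0.57 in OCsEoS (standard error 0.18, adjusted p = 0.0237), from 6.99 ± 0.647 CPM to 10.4 ± 2.19 CPM (SD, n = 4), and lost the call when any 1 of 5 libraries was left out. Of the 12 genes of SREBP processing and sterol sensing, 10 had a negative log2 fold change in OCsEo, with a median of -0.14, and 3 passed the adjusted p, all lower, against 8.35% of all tested genes that were lower. Of the 16 tested fatty acid genes under SREBP or LXR, 0 were called in any comparison with edgeR, and at the adjusted p alone 1 was higher and 4 lower in OCsEo, against 9.06% and 8.35% of all tested genes, and 2 and 3 in OCsEoS, against 11.8% and 11.2%.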

How the data were processed

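Bulk RNA of 12 osteoclast cultures (4 biological replicates in each of 3 groups, taken from the sample labels) was sequenced in paired-end mode. The authors removed adapter, poly-N and low-quality reads (fastp in the submitters' processing notes), aligned the rest to GRCm38/mm10 with HISAT2 2.0.5 and counted reads per gene with featureCounts. The deposited values are raw counts, used as deposited. The annotation release and the use of strand are not given in the sources used here, so counts of overlapping genes and of copies are uncertain.

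The tools were edgeR 4.0.16 and DESeq2 1.42.0 in R 4.3.3. Genes were filtered with filterByExpr (minimum count 10, minimum total 15), libraries were scaled by TMM, and the groups were tested in 1 fit of all 12 libraries by edgeR's quasi-likelihood test, with Benjamini-Hochberg adjustment over 13681 genes. DESeq2, which the study used, was run as an alternative, beside other scalings, filters, a replicate block and each library left out in turn. A length correction, in which each library's trend of counts with gene length entered the fit as an offset, was added after the data were seen. Log2 CPM for the values by role and library used a prior count of 2. Coordinates, exon overlaps and shared stretches of 75 bases came from GENCODE vM21, which holds 47224 of the 47643 gene identifiers (99.1%). Of the 30 members, 23 had the same start and end there as in the deposited values. Methods were tested on simulated data.

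The members, roles, lists and tests were chosen with earlier results of these data known. The rule named called genes and the member with the highest level per kilobase of each role, and of the further pathway genes at most 4 called ones per list and comparison. As no member was called, other genes were picked after their values were seen. Same-numbered replicates were not treated as pairs, because the methods name no pairing. The correlation of their deviations from the group means was -0.04 to 0.09 over 12 pairs, and -0.11 to 0.12 over pairs of different numbers. Yet 6 of 12 libraries correlated best with their own number in both other groups, so a pairing is not excluded. Totals of 27837530 to 40327869 counts per library set the depth, and standard errors reflect variation among these libraries only.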

Additional observations from a re-analysis of the deposited data

Results flagged for a closer look

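A library stood far from the other 3 of its group in 5 of the 90 combinations of gene and group examined, by Dixon's 95% critical value for its gap to the nearest, and chance alone gives about 1 in 20. Fdft1 was at 23.5 CPM in OCsEo 2, with the nearest library at 18.9 CPM. Nsdhl was at 48.3 CPM in OCsEoS 4, below the nearest at 63.8 CPM, and its log2 fold change in OCsEoS was -0.21 with and -0.11 without that library. Hsd17b7 was at 22.5 CPM in OCsEo 1, with the nearest at 17.5 CPM. Srebf2 was at 156 CPM in OCsEoS 2, with the nearest at 128 CPM, and Abcg1 was at 113 CPM in OCsCtr 4, with the nearest at 79.9 CPM. These libraries were 5 different ones, and all were kept in the fit.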

How the results depend on the processing

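Depth was not the main limit for most members, but Fdps had 276 counts in all libraries together. Precision rests on 4 libraries a group, and strand was not stated. No value that passed the adjusted p changed direction in any alternative run. Among values that did not pass, 48 changes of sign fell on 27 of 100 gene values. Without the cut-off on the fold change, the members called were 4 in OCsEo and 7 in OCsEoS, and the further pathway genes called were 24, 31 and 2 in OCsEo, OCsEoS and between the stimuli. Members called in OCsEoS were 1 with no filter on low counts and 1 with the replicate block (Abca1 in both). At the adjusted p alone, members higher in OCsEo were 1 with DESeq2 on all libraries, 1 with DESeq2 on 2 groups and 1 with the length correction. Those higher in OCsEoS than in OCsEo were 1 with either DESeq2 fit, with no filter, with at least 10 counts in every library and with the replicate block (Msmo1 with DESeq2 and the block). Those lower in OCsEoS than in OCsCtr were 4 with DESeq2 on 2 groups, 5 with no filter, 5 with the replicate block and 1 with the length correction, and the cause was not tested. With that correction, the median of the synthesis enzymes in OCsEoS was 0.21. The fit with the replicate block changed no other count of members by over 1.5 times. With it, all genes past the adjusted p went from 2382 to 2745 in OCsEo, 3151 to 3483 in OCsEoS and 81 to 148 between the stimuli.

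With single libraries left out, members called ranged from 0 to 1 in OCsEo (1 without OCsCtr 1), 0 to 1 in OCsEoS (1 without OCsCtr 1, OCsCtr 4, OCsEo 3 or OCsEoS 2) and 0 to 0 between the stimuli. Further pathway genes called ranged from 3 to 5, 4 to 8 and 0 to 1 (1 without OCsEoS 2). At the adjusted p alone, members higher ranged from 0 to 1 in OCsEo, 2 to 6 in OCsEoS and 0 to 1 between the stimuli, and members lower from 1 to 5, 1 to 5 and 0 to 0. In OCsEo the members lower fell to 1 without OCsEo 1. In OCsEoS the members higher fell to 2 without OCsEoS 3 and those lower to 1 without OCsCtr 2. The median of the synthesis enzymes ranged from -0.05 to 0.02 in OCsEo, 0.12 to 0.17 in OCsEoS and 0.15 to 0.20 between the stimuli, and that of the LXR and efflux genes from -0.13 to 0.03 (0.03 without OCsCtr 4), -0.25 to -0.16 and -0.25 to -0.08.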

Other observations

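Between the stimuli, 13 of the 15 genes of the isoprenoid branches of the mevalonate pathway had a higher fitted level in OCsEoS than in OCsEo (median log2 fold change 0.05), as had 13 of the 16 tested fatty acid genes under SREBP or LXR (median 0.08) and 9 of the 12 genes of SREBP processing and sterol sensing (median 0.05). Of the 20 tested genes of cholesterol ester, oxysterol and intracellular transport, 15 had a lower fitted level in OCsEoS (median -0.13). Of these 20, 3 were called lower in OCsEoS than in OCsCtr, against 4.11% of all tested genes. The genes of lipoprotein uptake and lysosomal cholesterol were divided, with 7 of 14 on either side, and so were the other LXR, RXR and efflux genes, with 6 of 12. The median over all tested genes was 0.00, with 6887 of 13681 higher and 6794 lower in OCsEoS than in OCsEo. Of the 89 further genes tested, 1 higher and 1 lower passed the adjusted p between the stimuli.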
